A study of Mus musculus with 4 samples.

Results

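The regions described here are stretches of open chromatin that were called in both libraries of Chd7-knockout erythroblasts, in neither library of wild-type erythroblasts, and more than 1 kb from both ends of every protein-coding gene. There were 334 of them among 15316 regions in all, and among 7565 regions that lay this far from gene ends, here called distal. They were chosen by their calls, so their presence in knockout lists and absence from wild-type lists is the rule itself and not a finding.

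The assay was ATAC-seq, which marks accessible DNA by the sites at which a transposase can insert adapters for sequencing. The knockout group was Chd7-/- G1ER cells (2 libraries, replicate 1 labelled 1 h and replicate 2 labelled 2 h), and the control group was wild-type G1ER cells (2 libraries with the same labelled times). Each library came from 50000 cells. G1ER is a mouse erythroblast line that lacks endogenous GATA1 and carries GATA1 fused to an estrogen receptor domain, so both genotypes share that background, and both grew with EPO and SCF and had no treatment. The descriptions of both knockout libraries carry the same code, E9, so genotype cannot be told apart from that line of cells. Separate cultures are not named in the labels, so p-values measure only the spread between these libraries, which may be technical. A peak in bulk chromatin does not separate few cells with an open site from many cells with a partly open one.

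CHD7 is a helicase of the chromodomain family that uses ATP to move nucleosomes and is known to bind at distal enhancers as well as at promoters. RUNX1, named in the title of the series beside it, is a transcription factor needed for the formation of blood stem cells. Distal open regions hold enhancers, insulators and unannotated promoters, and in erythroblasts enhancers are typically bound by GATA1, TAL1 and KLF1. Such a region is not tied to its nearest gene, so each gene link below gives a position only.

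Of the 334 regions, 12 overlapped a start window, which is the stretch from 250 bases before to 50 bases after a transcript start listed by RefSeq on GRCm38.p6. These are starts inside genes or starts of long non-coding RNAs, since the main ends of protein-coding genes are outside the rule. The protein-coding genes were Aldh1a1, Arhgap6, Ecpas, Elf1, Frmd4a, Gemin6, Serpinb9, Ssh2 and St7, and the long non-coding ones were Gm31568, Gm38542 and Gm40716. For 10 of them the region reached upstream of the listed start. The sequences of 5 are shown because they hold the letters of GATA motifs (AGATAA), which erythroid enhancers often carry, or of AP-1 motifs (TGANTCA). Each is the upstream part of the window that lay inside the region, 5′ to 3′ on the strand of the transcript, with motif matches on either strand in capitals.
Elf1: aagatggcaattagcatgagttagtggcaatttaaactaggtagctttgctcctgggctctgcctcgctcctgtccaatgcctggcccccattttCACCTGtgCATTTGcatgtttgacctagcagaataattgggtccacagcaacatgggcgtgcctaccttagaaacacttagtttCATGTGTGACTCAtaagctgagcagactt
Ecpas: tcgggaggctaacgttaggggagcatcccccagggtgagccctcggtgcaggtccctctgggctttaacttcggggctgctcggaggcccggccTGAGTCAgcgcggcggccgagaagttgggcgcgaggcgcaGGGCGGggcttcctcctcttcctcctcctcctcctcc
Aldh1a1: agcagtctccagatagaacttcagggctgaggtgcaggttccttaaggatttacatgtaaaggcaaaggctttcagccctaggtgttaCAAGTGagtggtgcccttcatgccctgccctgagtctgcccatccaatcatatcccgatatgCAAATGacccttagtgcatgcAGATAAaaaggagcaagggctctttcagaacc
St7: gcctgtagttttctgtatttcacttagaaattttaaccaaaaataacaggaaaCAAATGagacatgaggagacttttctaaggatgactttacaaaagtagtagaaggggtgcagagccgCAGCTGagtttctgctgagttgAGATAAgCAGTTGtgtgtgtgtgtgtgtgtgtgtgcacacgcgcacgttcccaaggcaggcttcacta
Gm40716: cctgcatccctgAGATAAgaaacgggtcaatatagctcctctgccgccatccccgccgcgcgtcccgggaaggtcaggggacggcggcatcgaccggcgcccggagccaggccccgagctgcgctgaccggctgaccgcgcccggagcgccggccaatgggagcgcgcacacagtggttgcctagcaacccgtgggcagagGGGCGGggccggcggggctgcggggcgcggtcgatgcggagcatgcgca
The Elf1 stretch (chr14:79515466-79515673, GRCm38, plus strand) starts an inner transcript of an ETS-family factor of blood cells and holds 3 E-boxes and 1 AP-1 match. The last of its E-boxes directly adjoins the AP-1 match. The Ecpas stretch (chr4:58912750-58912920, minus strand) belongs to a proteasome adaptor and holds 1 AP-1 match and 1 GC-box. Aldh1a1 (chr19:20601765-20601967, plus strand), a retinal dehydrogenase gene, holds 1 GATA match and 2 E-boxes. St7 (chr6:17743382-17743591, plus strand) holds 1 GATA match and 3 E-boxes. Gm40716 (chr10:80475381-80475630, minus strand) holds 1 GATA match and 1 GC-box.

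Motifs were searched on both strands. Beside the GATA and AP-1 letters given above, these were TGTGGT, which RUNX factors read, and for the E-box of TAL1 and its partners CANNTG. The ETS family, which includes ELF1, was given the letters CCGGAAG. The GC-box, which SP and KLF proteins bind in promoters of many housekeeping genes, was taken as GGGCGG. Of the 10 upstream stretches, 3 held GATA, 5 an E-box, 5 a GC-box and 2 AP-1, while 0 held RUNX or ETS. In the 250 bases before the start, the share of all 32619 start windows with a match was 10.02% for GATA, 66.2% for E-box and 32.96% for GC-box. It was 6.78% for AP-1, 13.9% for RUNX and 6.96% for ETS. Most of the stretches are shorter than these 250 bases, so the shares are a setting for the letters and not a test. A match is a description of letters, and the absence of one says nothing about a factor outside the window.

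Few distal knockout-only regions lay at a start window. These windows were overlapped by 12 of 323 knockout-only regions (3.72%, 95% exact Clopper-Pearson interval 1.93 to 6.4), leaving out chromosome 18, which has no windows in the table. The share was 18 of 202 (8.91%, 5.37 to 13.7) for distal regions called in both wild-type lists and neither knockout list, here called wild-type-only. It was 3.25% (50 of 1539) for distal regions called in 1 knockout library alone, 8.26% for regions called in 1 library of each genotype and 22.8% for distal regions called in all 4 lists. Median GC content of the 250 bases before the start was 47.2% in the 12 windows at knockout-only regions. It was 58.4% in the 22 windows at wild-type-only regions and 52.4% in all windows. Intervals cover the counting of regions and not the spread between libraries, and no test over libraries was made of this share.

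The regions were weak peaks on the whole. The deposited fold enrichment is the authors' own ratio of fragments at the summit to background, each plus 1. At many of the regions that background was the lowest of the library, as given below. Fold enrichment had a median of 5.70 in knockout replicate 1 (3.29 to 10.3) and 5.47 in knockout replicate 2 (3.60 to 11.2). The recovered pileup, the number of fragments over the summit, had a median of 12 (6 to 25) and 11 (7 to 28). Peaks that were not called have no value in the wild-type lists, where the lowest pileup of any peak was 6 in replicate 1 and 7 in replicate 2. Strength is used below for the rank of a fold enrichment within its list as a percentile, and a region takes the lower of its 2 knockout values. Its median was 13.1, with 8 regions over 50 and 243 under 25. The authors' −log10 q was at least 5 in both knockout lists at 119 regions, in 1 of them at 143 and in neither at 72. The median width was 330.5 bp (201 to 667), and summits in the 2 knockout libraries lay 44.5 bp apart at the median, with 301 of 334 pairs within 150 bp. Neither knockout library was the higher one throughout, since fold enrichment was higher in replicate 1 at 168 regions and in replicate 2 at 165.

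**Figure D1:**
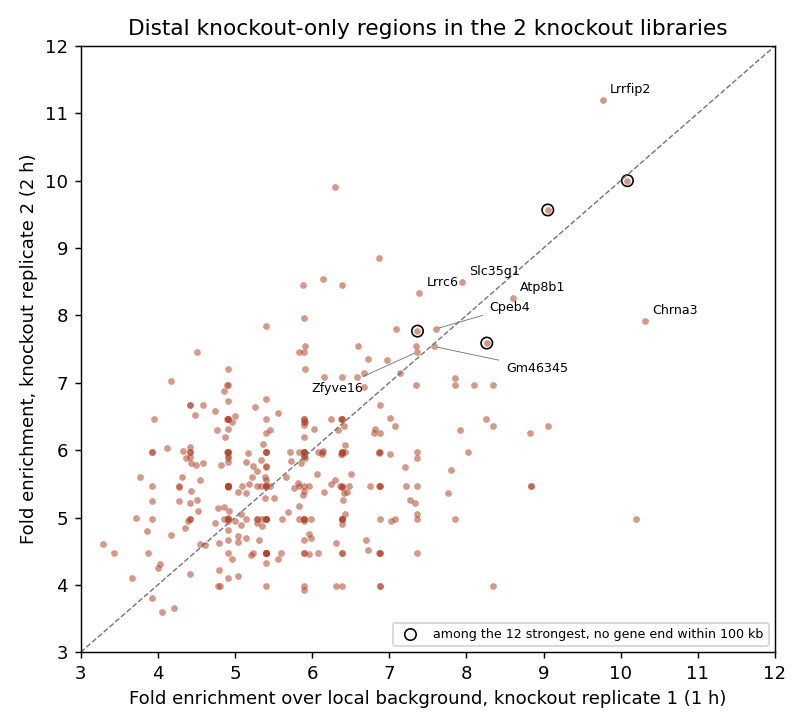
Deposited fold enrichment of the 334 distal knockout-only regions in knockout replicate 1 (horizontal axis) and knockout replicate 2 (vertical axis), each over the background used at the site in its own library. Points are regions and the dashed line marks equal values. Names are nearest genes among the 12 strongest and circles those with no gene end within 100 kb. Most points lie between 4 and 8 in both libraries, and Lrrfip2 is the highest in replicate 2, at 11.2.

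Distal knockout-only regions made up 4.42% of all distal regions, against 2.76% for distal wild-type-only regions (209). The counts were closer in other settings: with −log10 q of at least 5 required throughout there were 215 distal knockout-only and 204 distal wild-type-only regions, and with lists of equal length 289 and 218. Knockout-only regions near to and far from gene ends together were 2.71% of all regions (415 of 15316). The 334 lay on all 19 autosomes and on X, and their share of distal regions ranged between 2.28% on chromosome 12 (10 of 438) and 7.66% on chromosome 19 (16 of 209). Only 14 had another such region within 50 kb. At the 1 kb limit, the regions just inside the rule were those at Lsm11 (1130 bp from a gene end), Rrm2 (1172 bp) and Hs3st3a1 (1184 bp). Those just outside were at Fbxl20 (979 bp), Dnase2b (990 bp) and Mex3b (992 bp).

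The libraries differed in depth. The used lists held 12431 and 11361 peaks in knockout replicates 1 and 2 and 11074 and 12033 in wild-type replicates 1 and 2. The lowest recovered background, which follows depth if reads were extended alike, was 1.036 and 1.011 in knockout and 0.787 and 1.08 in wild type, so wild-type replicate 1 was the shallowest at 73.0% of the highest. Of the 534 distal regions called in both knockout libraries and 1 wild-type library, that call came from wild-type replicate 1 at 166 and from wild-type replicate 2 at 368. Without wild-type replicate 1 the rule gave 503 regions, with a median distance of 19.3 kb to a gene end and 32.7 kb to a region called in the other 3 lists. Erythroblast markers with a region called in all 4 lists within 1 kb of a gene end included Epor, Tfrc and Nfe2. Markers of lymphoid cells (5), granulocytes and macrophages (5), endothelium (3) and fibroblasts (3) had 0. Of 12 erythroblast markers, 8 had none, namely Gata1, Klf1, Slc4a1, Alas2, Hbb-bt, Hba-a1, Tal1 and Gfi1b.

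Many distal knockout-only regions had the lowest background of their library. In knockout replicate 1 this share was 40.7%, against 21.3% of all distal regions called there, and in knockout replicate 2 it was 41.9%, against 19.6%. Other distal classes with few calls showed it too. The share was 47.4% and 47.8% for regions called in knockout replicate 1 alone and in knockout replicate 2 alone, and 28.3% and 27.5% for regions called in both knockout libraries and 1 wild-type library. Among distal wild-type-only regions the shares were 11.96% in wild-type replicate 1 and 11.48% in wild-type replicate 2, against 11.88% and 13.2% of all distal regions called there. Over whole lists the share of peaks was 13.6% and 12.2% in knockout and 7.59% and 8.14% in wild type. Its part in the calls was not tested.

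**Figure D2:**
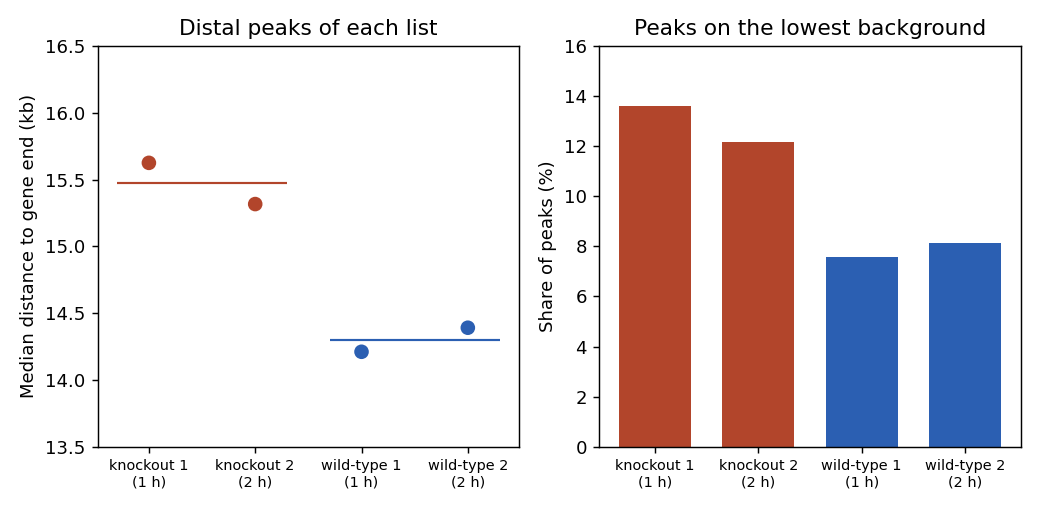
Left, the median distance in kb to the nearest protein-coding gene end of the distal peaks of each list, with points for libraries and lines for genotype means; right, the share in percent of each list's peaks that had the lowest background of that library. Knockout libraries stand at 15.6 and 15.3 kb and at 13.6 and 12.2%, above the wild-type libraries at 14.2 and 14.4 kb and at 7.59 and 8.14%.

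Distal knockout-only regions had the longest median distance to genes of the 6 classes called in 2 or more lists. Their distance to the nearest protein-coding gene end was 21.2 kb at the median (quartiles 9.15 and 53.3), against 13.7 kb for distal wild-type-only regions, 18.5 kb for regions called in both knockout libraries and 1 wild-type library, 18.85 kb for regions called in 1 knockout library alone, 16.2 kb for regions called in 1 library of each genotype and 14.2 kb for distal regions called in all 4 lists. By distance, 96 lay within 10 kb of a gene end, 152 over 10 to 50 kb away, 40 over 50 to 100 kb and 46 over 100 kb. The last group was 13.8% of them (95% exact interval 10.3 to 17.9), against 7.66% (4.44 to 12.1) of distal wild-type-only regions and 15.01% of regions called in 1 knockout library alone. Outside protein-coding genes lay 175 (52.4%, 46.9 to 57.9), against 45.9% (39.0 to 52.9) of distal wild-type-only regions. This share was 49.0% for regions called in 1 knockout library alone and 41.8% for distal regions called in all 4 lists. Of the 159 knockout-only regions inside a gene, 132 had an end of that same gene as the nearest. Near an end of a long non-coding gene (within 1 kb) lay 23 of 334 (6.89%), against 6.70% of distal wild-type-only regions.

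The distance to gene ends can be set out with 1 value a library, over all distal peaks of a list and not the selected regions alone. Each list still holds regions set by the calls, knockout-only ones in knockout and wild-type-only ones in wild type. The values are therefore not independent of the rule. The median was 15.6 kb in knockout replicate 1 and 15.3 kb in knockout replicate 2, against 14.2 kb in wild-type replicate 1 and 14.4 kb in wild-type replicate 2. Both knockout values were above both wild-type values. The means were 15.5 ± 0.218 kb in knockout and 14.3 ± 0.127 kb in wild type (SD, n = 2 each), a difference of 1.17 kb with a two-sided exact permutation p of 0.333, the smallest that 2 libraries against 2 can give. The difference was 1.41 kb between the 1 h libraries and 0.926 kb between the 2 h libraries.

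**Figure D3:**
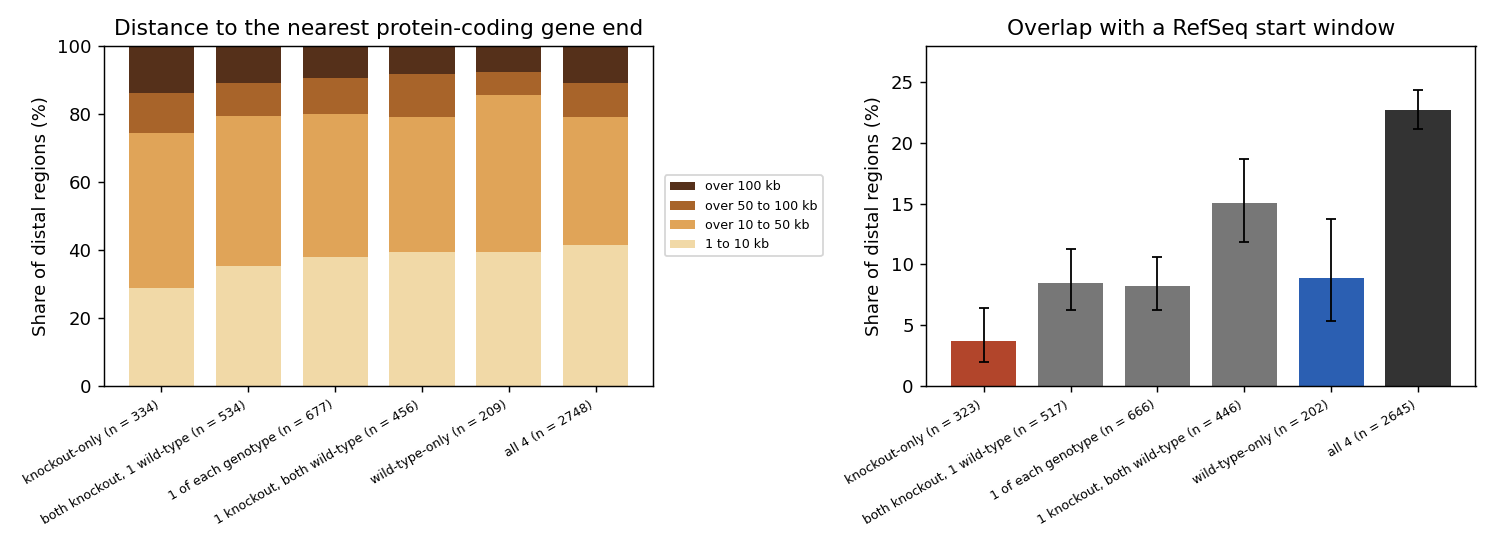
Left, the share in percent of each class of distal regions by distance to the nearest protein-coding gene end; right, the share in percent that overlapped a RefSeq start window, with 95% exact binomial intervals as error bars, chromosome 18 left out. Classes are named by the lists that called them, and knockout-only regions have 13.8% over 100 kb from a gene end and 3.72% at a start window.

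Chromatin that was open in every library was also at a distance. The median distance to the nearest region called in all 4 lists was 36.4 kb (quartiles 15.3 and 103 kb), against 23.0 kb for distal wild-type-only regions. It was 29.2 kb for regions called in 1 library of each genotype and 33.2 kb for regions called in both knockout libraries and 1 wild-type library. Regions called in 1 wild-type library alone had 34.1 kb and those called in 1 knockout library alone 42.7 kb. A long median was thus not particular to the knockout-only class. Within 5 kb of a region called in all 4 lists lay 21 knockout-only regions (6.29%, 95% exact interval 3.93 to 9.45), against 33 distal wild-type-only regions (15.8%, 11.1 to 21.5). This share was 11.05% for regions called in both knockout libraries and 1 wild-type library. It was 7.44% (6.20 to 8.84) for regions called in 1 knockout library alone, so a low share was not particular to the knockout-only class. More than 100 kb away lay 84 knockout-only regions (25.1%, 20.6 to 30.2), against 34 distal wild-type-only regions (16.3%, 11.54 to 21.98). The share was 23.2% for regions called in both knockout libraries and 1 wild-type library, 29.5% for regions called in 1 knockout library alone and 27.0% for regions called in 1 wild-type library alone, so it was not particular to the knockout-only class. No test over libraries was made of these distances, since each class is defined over all 4 lists.

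The regions nearest to always-called chromatin were those linked to Tuba1c, an alpha-tubulin gene (269 bp), Srfbp1 (297 bp), Gm40035 (332 bp), Msl3, a subunit of the MSL acetyltransferase complex (633 bp), and Sgf29, a subunit of the SAGA acetyltransferase complex (934 bp). At Tuba1c the always-called neighbour had pileups of 19 and 16 in knockout and 9 and 15 in wild type, and the knockout-only region had 14 and 13. At Srfbp1 the neighbour had 16 and 13 in knockout and 15 and 18 in wild type, so there the groups overlapped. The farthest were the region linked to Hgf, the hepatocyte growth factor gene (3490 kb), one inside Fhit (2761 kb), one on chromosome 9 (1865 kb), one on chromosome 12 (1470 kb) and one linked to the odorant receptor gene Olfr1066 (1416 kb).

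**Figure D4:**
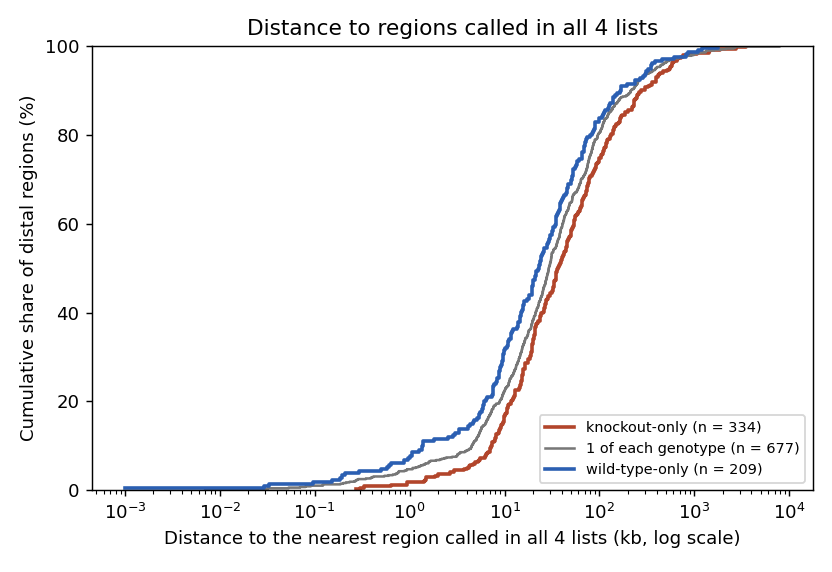
Cumulative share in percent of distal regions (vertical axis) within a given distance in kb, on a log axis, of the nearest region called in all 4 lists, for the knockout-only class, the class called in 1 library of each genotype and the wild-type-only class. The knockout-only curve lies to the right of the others shown, with a median of 36.4 kb against 23.0 kb for wild-type-only regions. Regions called in 1 knockout library alone, which are not shown, had a median of 42.7 kb.

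By gene, 288 regions had a protein-coding gene end within 100 kb of their middle, and these named 280 genes. At 140 of the 288 (48.6%, 95% exact interval 42.7 to 54.5) an end of the linked gene itself lay within 1 kb of a region called in all 4 lists. The share was 45.1% for distal wild-type-only regions, 38.3% for distal regions called in all 4 lists and 42.0% for all other distal regions.

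The strongest region of all lay on chromosome 18 (chr18:29673843-29674286), 591 kb from the nearest gene end, with fold enrichments of 10.1 and 10 in knockout replicates 1 and 2 and pileups of 22 and 21. The next lay inside Lrrfip2, an adaptor of Toll-like receptor signalling (chr9:111152328-111152812), with 9.77 and 11.2 and pileups of 24 and 27. The other regions among the 5 strongest without a near gene were chr15:19622234-19622737, chr3:8022644-8023128, chr6:11709472-11709939 and chr1:95451841-95452137. Of the 12 strongest regions, 4 had no gene end within 100 kb.

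Inside Atp8b1, which encodes a phospholipid flippase, lay chr18:64578297-64578914 with fold enrichments of 8.61 and 8.26. The region nearest to Chrna3, a nicotinic acetylcholine receptor subunit gene, was inside its neighbour Chrna5 (chr9:54995607-54996021), with 10.3 and 7.92. Slc35g1, a solute carrier gene, had a region 4.99 kb from its end (7.94 and 8.49). The region linked to Cpeb4, a regulator of translation that acts in terminal erythroid differentiation of the mouse, lay 26.1 kb from the gene (7.60 and 7.80), and an end of Cpeb4 was open in all 4 lists. The remaining genes of the 24 strongest linked regions span unlike roles. Lrrc6 works in assembly of ciliary dynein, Zfyve16 is an endosomal protein, Fbxo11 a subunit of a ubiquitin ligase, Frrs1 a ferric-chelate reductase, Cobl an actin nucleator and Acss2 an acetyl-CoA synthetase. Usp18 removes the ubiquitin-like protein ISG15, Uggt2 is a glycoprotein glucosyltransferase, Dpysl2 a microtubule regulator of axons, Kcng3 a potassium channel subunit, Ryk a Wnt receptor, Hsd11b1 a glucocorticoid-activating enzyme and Bank1 a B-cell adaptor. The others were linked to Gm46345, Tsga10, Ncdn, Slc22a8, Mettl15 and Gal3st2c. Across these, from Lrrc6 to Bank1 in strength, the percentile ranged between 48.1 and 36.6.

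Genes of the erythroid programme were linked to 2 of the 334 regions (0.599%), against 0.498% of other distal regions. The first lay 2.18 kb from Kel, the Kell blood group antigen gene (chr6:41706396-41706630), with fold enrichments of 5.28 and 4.92. The second lay inside Fech, which encodes ferrochelatase, the enzyme that inserts iron into haem (chr18:64485712-64486008), with 4.50 and 5.78 and pileups of 17 and 19. An end of each gene was open in all 4 lists.

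Haematopoietic transcription factors and cofactors were linked to 3 (0.898%, against 1.33% of other distal regions), at Elf1, Klf6 and Nfe2l2. The Klf6 region (Klf6 is a Krüppel-like factor) lay 91.6 kb from the gene, with 5.89 and 7.46, and the Nfe2l2 region (the oxidative stress factor NRF2) lay 44.0 kb away, with 5.89 and 5.47. Elf1 held 2 regions, 36.1 kb apart. One covers the inner start shown above (fold enrichments of 5.91 and 7.54, pileups of 14 and 18) and the other is chr14:79552030-79552292 (6.02 and 6.31). The middle of the first lies nearest to an end of Wbp4, so it is linked to that gene by distance.

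Cytokine and receptor signalling genes were linked to 2 (0.599%, against 0.539% of other distal regions). These were Irs2, an adaptor of insulin and cytokine receptors, with a region 75.3 kb away (5.83 and 5.97), and Spred1, an inhibitor of RAS signalling downstream of KIT (33.4 kb away, 4.91 and 4.95). Stem cell, mast cell and megakaryocyte genes were linked to 2 (0.599%, against 0.263%), at Rab27b, which acts in granule secretion (5.45 and 6.31), and Cpa3, a mast cell carboxypeptidase (4.42 and 5.97). The cell cycle list had 1, inside Cdk6 (5.6 and 4.48), which is 0.299%, against 0.567% of other distal regions. Lists of granulocyte, macrophage and lymphoid genes and of developmental genes known from CHD7 loss had 0, against 14 and 4 of the 7231 other distal regions.

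Chromatin remodellers and modifiers were linked to 4 (1.198%, against 0.456% of other distal regions and 0.478% of distal wild-type-only regions). Of these, 2 were at Chd2, a helicase of the same family as CHD7: one inside the gene (chr7:73517475-73517752, 4.91 and 5.47) and one 86.5 kb from its end (chr7:73628166-73628384, 5.29 and 4.97). The others were inside Kdm5b, an H3K4 demethylase gene (4.78 and 5.14), and 6.39 kb from Chd9, a close paralog of Chd7 (3.88 and 4.48). All 4 were weak, ranking between 181 and 324 of 334 by strength.

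Large gene families were counted in the same way. Solute carriers had 7 (2.096%, against 1.89%), led by Slc35g1, Slc22a8, an organic anion transporter, Slc6a9 and Slc7a15. Slc6a9 is the glycine transporter that supplies haem synthesis in erythroid cells, and its region lay 28.2 kb away (chr4:117806751-117807275, 7.37 and 5.88). Ion channels and neurotransmitter receptors had 4 (1.198%, against 0.788%), at Chrna3, Kcng3, Gabrg1 and Kcnh2. Odorant receptors had 3 (0.898%, against 0.664%), at Olfr1066, Olfr761 and Olfr31. Zinc finger genes of the Zfp series had 4 (1.198%, against 2.31%), at Zfp184, Zfp160, Zfp236 and Zfp600. Protein phosphatases had 2, at Ppp6r2 and Ptpn12 (0.599%, against 0.747%). Cadherins and contactins had 0 (against 0.207% of other distal regions), and axon guidance genes had 0 by distance (against 0.332%), although 2 regions lay deep inside the ephrin receptor gene Epha6.

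There were 12 genes with 2 distal knockout-only regions each, by span or by link, namely Abca1, Bbx, Cdyl, Chd2, Chst11, Elf1, Epha6, Ppm1b, Ralgapa2, Rbms1, St7 and Steap3. Steap3 encodes the ferrireductase of the transferrin cycle in erythroblasts. Its regions were chr1:120231464-120231719 inside the gene (4.51 and 5.26) and chr1:120293871-120294133, 22.9 kb beyond an end (6.14 and 5.98). Abca1, the cholesterol efflux transporter gene, had 1 region inside (6.38 and 4.90) and 1 beyond its end (6.86 and 5.96), 89.9 kb apart. Cdyl, a chromodomain corepressor gene, had 2 inside, with 6.13 and 5.94 at the stronger. The paired regions lay 28.4 kb (Ppm1b) to 210 kb (Ralgapa2) apart. Aco1, the iron regulatory protein 1 gene, which was picked after the values were seen, had a region inside it (5.40 and 5.47).

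At 11 linked genes a distal wild-type-only region was linked to the same gene. They were Atp8b1, Cab39, Ccdc12, Cdc7, Cdyl, D10Wsu102e, Ecpas, Eif4g2, Ggta1, Mrto4 and Plekha2. Beside Cdc7, a replication kinase gene, the knockout-only region (chr5:107015835-107016170, 7.34 and 5.22 in knockout) and the wild-type-only region (chr5:107015458-107015812, 5.36 and 4.04 in wild type) were 22 bp apart. At Ecpas, whose inner start is shown above, they were 106 bp apart, with 5.04 and 5.37 in knockout and 5.65 and 5.96 in wild type. At Mrto4 they were 1.09 kb apart and at Cab39 1.46 kb. At these 4 genes the calls of the 2 genotypes thus lay side by side, while at the other 7 the nearest pair was 8.59 to 62.0 kb apart.

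Whether chromatin around the distal knockout-only regions was also more open can be asked of regions the rule did not use, those called in all 4 lists. The nearest such region of each gave 321 distinct neighbours among 8698 always-called regions. The distance to them was 36.4 kb at the median, so many are not close by. Sites without a wild-type call are outside this comparison, since always-called regions need one in both wild-type lists. Pileups were compared with limma on log2(pileup + 1), centred on the median of each library, with Benjamini-Hochberg adjustment over all 8698. At adjusted p under 0.05, 0 of the 321 neighbours were called higher and 0 lower in knockout, and the background was 0.0% in each direction. At an unadjusted p under 0.05 there were 39 (12.1%, 25 higher and 14 lower in knockout), against 8.7% of all always-called regions (5.02% higher and 3.68% lower). For neighbours of distal wild-type-only regions the share was 12.3% (25 of 204, 16 higher and 9 lower in knockout). The median log2 difference, knockout minus wild type, was 0.02 in neighbours and 0.02 in all always-called regions, with 173 of 321 (53.9%) above 0, against 53.5%. For the 56 neighbours within 10 kb of a distal knockout-only region the median was 0.0016, with 50% above 0. Of these, 8 (14.3%) had an unadjusted limma p under 0.05, 6 higher and 2 lower in knockout.

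A fit with the replicate number as a block sets 1 h against 1 h and 2 h against 2 h. The deviations of same-numbered libraries from their genotype means correlated at only 0.0018 over 8698 regions, so these values give the pairing little support. With this block 2 neighbours passed, both higher in knockout, and they were the only ones among the 8698 (0.023%). The first lies 45997 bp from an end of Gabrg1, a GABA-A receptor subunit gene (chr5:70704383-70705050). It had pileups of 37 and 25 in knockout and 9 and 12 in wild type. Both knockout libraries were above both wild-type libraries, and the log2 difference was 1.54 (SE 0.20), with a limma adjusted p of 0.213, or 0.0429 with the block. The knockout-only region nearest to it lies 114 kb away inside Gabrg1 (chr5:70818604-70819251, fold enrichments of 6.41 and 6.36).

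The second lies 82843 bp from Irs2 (chr8:11091772-11092708), with pileups of 33 and 36 in knockout and 11 and 16 in wild type. The groups did not overlap. The log2 difference was 1.39 (SE 0.20), with a limma adjusted p of 0.217, or 0.0429 with the block. Here the knockout-only region lies 7.42 kb away (chr8:11084078-11084350), between that neighbour and the gene. These were the 2 lowest p-values of all 8698 regions without the block too. When 1 library was left out, the limma adjusted p of the Gabrg1 neighbour ranged between 0.226 and 0.846 and that of the Irs2 neighbour between 0.363 and 0.846.

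The next neighbours by p were chr10:17600426-17601272, with no gene end within 100 kb (pileups of 50 and 33 in knockout and 15 and 25 in wild type), chr1:44584791-44585224 near Gulp1, an engulfment adaptor gene (31 and 25 in knockout, 12 and 19 in wild type), and chr3:79580064-79580592 near Ppid, a cyclophilin gene (26 and 27 in knockout, 12 and 18 in wild type). Their log2 differences were 1.11, 0.92 and 0.89, with limma adjusted p-values of 0.292, 0.349 and 0.350, and none passed with the block either (0.171 to 0.176). In each the lower knockout pileup was above the higher wild-type pileup. These neighbours, like those near Gabrg1 and Irs2, were picked by low p, so such a gap largely follows from the choice. Its share among all always-called regions was not counted. With pileups divided by relative depth instead of centred, the median log2 difference of all always-called regions was −0.21, against 0.02, and then 5 neighbours passed by limma, the 2 above higher in knockout and 3 lower (near Chst11, Fzd4 and Rbmx). All 5 neighbours had the same SE of 0.255, so that fit used a pooled variance and not the spread of each region. Of all 8698 regions 70 passed, 5 of them higher in knockout, so most calls under that scaling were lower in knockout.

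**Figure D5:**
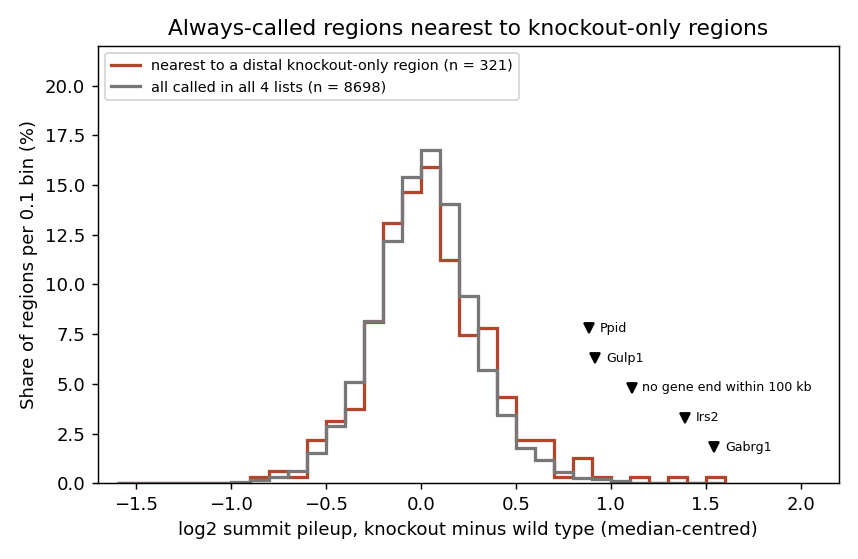
Distribution of the log2 difference in summit pileup, knockout minus wild type (horizontal axis), as the share in percent of regions in bins of 0.1, for the 321 always-called regions nearest to a distal knockout-only region and for all 8698 always-called regions. The curves have the same median of 0.02, and triangles, placed at arbitrary heights, mark the 5 neighbours with the lowest p, by nearest gene, between 0.89 and 1.54.

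The neighbours were less often at gene ends than always-called regions in general (58.6% of 321, against 68.4% of 8698). Always-called regions away from gene ends had a larger share of low limma p-values than those at gene ends, and most of these were higher in knockout. At an unadjusted p under 0.05, 276 of the 2748 regions away from gene ends (10.04%) were higher in knockout and 97 (3.53%) lower. Of the 5950 at gene ends, 161 (2.71%) were higher and 223 (3.75%) lower. Among the 133 distal neighbours 18.8% had an unadjusted p under 0.05, against 13.6% of all 2748 distal always-called regions. The median log2 difference was 0.07 in these neighbours and 0.08 in all distal always-called regions. Of the latter 62.1% were above 0, against 49.6% of always-called regions at gene ends. At the ends of the linked genes themselves, 7 of 136 always-called regions (5.15%) had one, 2 higher and 5 lower in knockout, against 6.45% of the 5950 at any protein-coding gene end. Always-called gene ends linked to distal knockout-only regions had a median log2 difference of −0.02, against −0.0027 at all gene ends by the same limma comparison.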

How the data were processed

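ATAC-seq peaks were measured in 4 libraries, 2 per genotype, with groups and replicate numbers from the titles. The submitters' processing notes name MACS2 2.1.0 and Bowtie2 2.2.1 without their roles. The lists were deposited 1 per library, not pooled, on GRCm38 per the peak names. The sources used here give no threshold, control, read shift or duplicate handling. Each list holds the authors' fold enrichment (a ratio), −log10 p and −log10 q, and a score of about 10 times −log10 q. Total reads are unknown, so precision is limited by the counts of regions and intervals cover counting only.

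Peaks on chromosomes 1 to 19 and X were merged where they shared a base, leaving out chromosome Y and 2 mitochondrial peaks per list. Fold enrichment, as pileup plus 1 over background plus 1, with the Poisson −log10 p (tolerance 0.001) gave back pileup and background at each summit, with the larger pileup kept at 16 peaks of wild-type replicate 1 that had 2 solutions. Comparisons of pileups rest on the caller having left them unscaled. Gene ends of 21631 protein-coding genes, long non-coding genes and start windows came from RefSeq tables (GRCm38.p6, read by symbol and position). A region was linked to the nearest protein-coding end within 100 kb of its middle. limma 3.58.1 in R 4.3.3 compared log2 pileups (pseudocount 1) over always-called regions, and an exact permutation test compared medians over libraries. Pileup recovery and the limma step were tested on simulated data. The remaining steps ran in Python 3.11.15 with scipy 1.17.1, pandas 2.3.3 and numpy 2.4.6.

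The replicate number coincides with the labelled time (1 h or 2 h), which is taken as the source of pairing, and the deviations of same-numbered libraries from their genotype means correlated at 0.0018 over 8698 regions. Alternatives were lists of equal length, −log10 q of at least 5, summit windows, 50% overlap, other distance limits, the block, a pseudocount of 5, relative depth, a minimum mean pileup of 15, and each library left out. Named were the 24 strongest linked and 5 strongest unlinked regions, up to 4 per gene list (16 lists, of which the cytokine and the myeloid list each had 1 gene without an entry, and 1 list and 1 marker gene are not reported here), genes with 2 regions, the 5 nearest to and farthest from always-called regions, 3 on each side of the 1 kb limit and the 5 neighbours with the lowest p. The regions, lists and tests were chosen with earlier results of these data known.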

Additional observations from a re-analysis of the deposited data

Results flagged for a closer look

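Chromosome Y was outside the comparisons above. It held 12 peaks in knockout replicate 1 and 15 in knockout replicate 2, against 10 in each wild-type library, so both knockout lists had more there. The difference was not tested, and the whole lists also differ in length.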

How the results depend on the processing

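The number of distal knockout-only regions (334) was 289 to 341 with lists of equal length, summit windows, 50% overlap, a 2 kb limit, ends of long non-coding genes and adjoining peaks joined (added after the data were seen). Under a −log10 q limit of 5 it was 215 when all lists were held to it and 119 when the knockout lists were. Distal wild-type-only regions (209) numbered 204 with the limit in all lists and 218 with lists of equal length. Both settings drop weak peaks, and 119 of the 334 were found again under the first of them. Leaving out 1 library, so that the rule asks for 1 call or 1 absence fewer, gave 503 to 1372, with 503 without wild-type replicate 1 and 1372 without knockout replicate 2. The median distance to a region called in all 4 lists was 57.7 kb with that limit in all lists and otherwise 32.7 to 44.4 kb. To gene ends the median was 27.0 kb with the limit in the knockout lists, 13.2 kb when ends of long non-coding genes counted as well, and otherwise 19.3 to 23.5 kb.

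The count of neighbours past the threshold (0) was 2 with the replicate block and 5 with division by relative depth, and 0 under the other 8 settings, which include each library left out. The median log2 difference of neighbours minus that of all always-called regions (−0.0069) was −0.0159 to 0.0311 when 1 library was left out. It was positive without knockout replicate 2 (0.0299) and without wild-type replicate 2 (0.0311), and the cause was not tested. The difference in median distance to gene ends per library was 0.648 to 1.32 kb under all 9 alternatives. In each the lists still held regions set by the calls, so this range is not independent of the rule either. With the replicate block the two-sided exact permutation p was 0.5, the smallest that 2 pairs can give. Pileups of 6 to 28 at the regions limit what each call can carry.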
